A study of Mus musculus with 8 samples.

Results

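CHIR-99021 is a small molecule that inhibits the kinase GSK3, and the comparison described here is that of MEFs cultured with CHIR-99021 against MEFs cultured without a compound. MEFs are mouse embryonic fibroblasts, primary connective tissue cells grown from the trunk of midgestation embryos without the limbs and inner organs, and they are a mixed culture rather than a clone. The members are the 2 libraries labelled CHIR-99021 and the 2 labelled MEF, 4 of the 8 RNA-seq libraries in all. Every culture was wild type, of the C57BL/6J strain and at low passage, and the labels give the MEF group only as control, with no vehicle named. The treated cultures received CHIR-99021 at 10 µM once the cells had attached, and the medium was renewed every 3 days with the compound kept on. The other 4 libraries, 2 from cultures with Carbidopa and 2 from cultures with LY-364747, also at 10 µM, were used to see where CHIR-99021 differed from another treatment. The labels give neither the day of RNA harvest nor whether replicates were separate cultures, so p-values measure the spread between these libraries, which may be technical. Whatever handling the treated cultures had in common against the MEF group cannot be told apart from the effect of CHIR-99021 in the comparison with MEF. The comparisons with Carbidopa and LY-364747 do not use the MEF libraries.

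GSK3 phosphorylates beta-catenin within a cytoplasmic complex built on Axin and Apc, which marks beta-catenin for destruction. When GSK3 is blocked, beta-catenin can build up, enter the nucleus and join TCF and LEF factors at Wnt target genes, among them the feedback inhibitor Axin2. GSK3 also phosphorylates glycogen synthase, cyclins, Myc and SREBP factors, so its inhibition bears on glycogen, growth and lipid synthesis as well. In fibroblasts Wnt signals are known for their exchange with TGF-beta signalling, which drives the contractile myofibroblast state and matrix deposition.

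Gene counts totalled 15039566 and 17635923 in MEF and 16807175 and 16816370 with CHIR-99021. In each library the top 10 genes by count took a share of the total, 10.1% and 10.5% in MEF and 6.34% and 7.39% with CHIR-99021. Values below are CPM, counts scaled to a common library size with TMM normalization, given as both libraries of a group, and differences are log2 fold changes from edgeR's quasi-likelihood test with Benjamini-Hochberg adjusted p-values. Taken over all genes together, replicates differed by 4.35 (MEF), 9.38 (CHIR-99021), 36.4 (Carbidopa) and 7.60 (LY-364747) times the chi-square value of sampling noise. This is a single value per group, and for genes with few counts counting error can be a large part of the spread. Fibroblast markers were present in every library, with Pdgfra at 238 and 264 CPM in MEF and 387 and 394 CPM with CHIR-99021 and Twist1 at 36.4 and 39.3 and 31.3 and 33.7 CPM. Other fibroblast markers, Col1a1, Col1a2, Dcn, Fn1, Thy1 and Vim, were called lower than in MEF, so these markers did not keep their level together. The labels call the treated cells hepatic-like. Of the hepatocyte markers, Ttr, Apoa1, Fgb, Serpina1a and Cyp2e1 had at most 2 counts in any CHIR-99021 library. The markers Alb and Hnf4a had 13 and 15 counts over both CHIR-99021 libraries, against 2 and 3 over both MEF libraries.

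Of 15154 genes tested, 5878 (38.8%) differed between CHIR-99021 and MEF at an adjusted p under 0.05. Of these, 2835 genes (18.7% of those tested) were higher and 3043 (20.1%) were lower with CHIR-99021. Large falls outnumbered large rises, since 921 genes rose and 1525 fell at least 2-fold, and 86 rose and 181 fell at least 16-fold. The median log2 fold change over all genes tested was 0.04. With each MEF or CHIR-99021 library left out in turn the count of genes called ranged from 3433, without CHIR-99021 replicate 1, to 4709, without CHIR-99021 replicate 2, and it was 3905 and 3459 without MEF replicates 1 and 2.

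**Figure D1:**
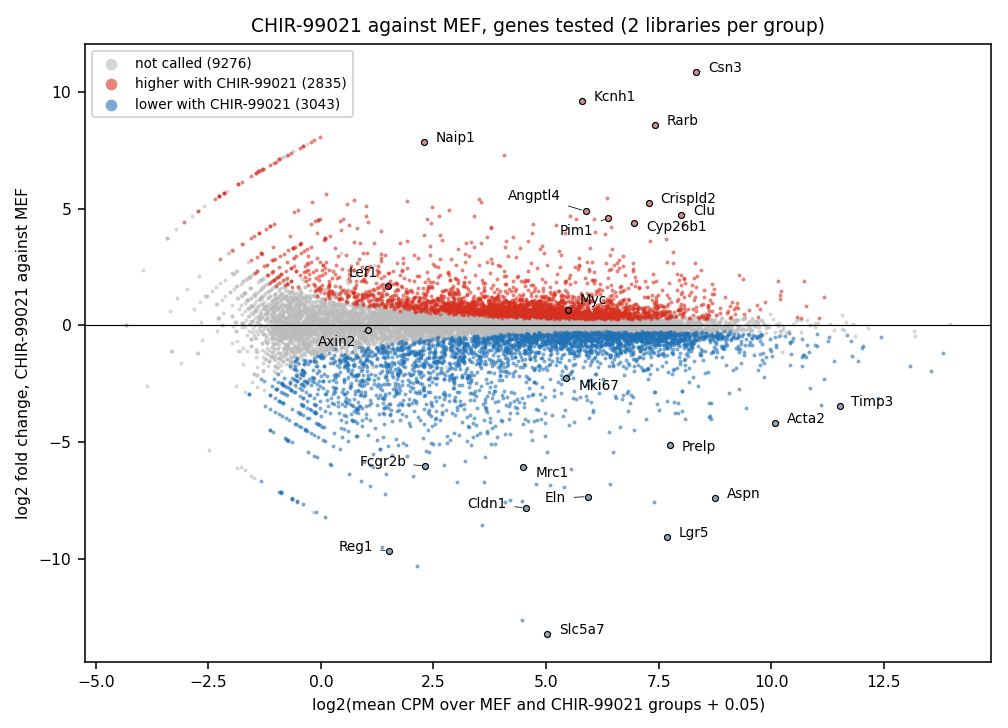
Each point is 1 of the 15154 genes tested, with its mean level over the MEF and CHIR-99021 groups on the horizontal axis (log2 of mean CPM + 0.05) and its log2 fold change on the vertical axis. Red points (2835) were called higher and blue points (3043) lower with CHIR-99021, and the named genes are circled.

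The largest rise was that of Csn3, which encodes the milk protein kappa-casein and went from 0.446 and 0.258 CPM in MEF to 579 and 716 CPM, a rise of 10.84 on the log2 scale with a standard error of 0.23 (adjusted p = 1.85e-09). Kcnh1, a voltage-gated potassium channel, rose from 0.149 and 0.129 to 109.7 and 113 CPM (log2 fold change 9.58, standard error 0.24, adjusted p = 4.9e-09). Rarb, the beta receptor for retinoic acid, rose from 0.892 and 0.903 to 328 and 353 CPM (log2 fold change 8.55, standard error 0.16, adjusted p = 1.14e-09). All 3 were near absent in the MEF libraries and abundant in both CHIR-99021 libraries. They were as high or higher with the other compounds, Csn3 at 996 and 999 CPM with Carbidopa and 1144 and 1010 CPM with LY-364747, Kcnh1 at 126 and 158 and 165 and 169.5 CPM and Rarb at 425 and 392 and 406 and 396 CPM, so these rises were not particular to CHIR-99021. Csn3 was lower with CHIR-99021 than with Carbidopa by 0.62 on the log2 scale (adjusted p = 0.00846) and than with LY-364747 by 0.73 (0.00381). Both calls were lost without CHIR-99021 replicate 1 and the second also without LY-364747 replicate 1.

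Naip1, an inflammasome sensor, had 1 and 0 counts in MEF and 181 and 152 with CHIR-99021, a ratio of 279 with an exact 95% counting interval from 49.7 to 11040, and 20.5% of its 75-base words also stand in transcripts of other genes, Naip3 and Naip5 first among them. Crispld2, a secreted protein, rose from 9.07 and 7.16 to 293 and 312 CPM, with 139 and 159.9 CPM with Carbidopa and 165 and 172 CPM with LY-364747, and the CHIR-99021 libraries stood above all others. Clu, which encodes the secreted chaperone clusterin, rose from 17.8 and 19.03 to 497 and 491 CPM, but was higher still with Carbidopa (1571 and 1238 CPM) and LY-364747 (1246 and 1355 CPM). Arg1, the urea cycle arginase, rose from 0.297 and 0.323 to 10.3 and 10.9 CPM. The others among the 15 largest rises were Cdhr1, Ano4, Shisa3, Esm1, Slc4a10, Tmem255a, Sprr1a and Angptl4, with log2 fold changes from 4.67 to 5.43.

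Among the falls, Slc5a7, the high-affinity choline transporter, had 829 and 1057 counts in MEF and 0 in both CHIR-99021 libraries, at least 374-fold lower against 3 counts in each library. Reg1, a secreted lectin, went from 83 and 78 counts to 0 and 0, at least 32.3-fold lower. Lgr5, the R-spondin receptor that is itself a Wnt target in gut and hair follicle, fell from 398 and 423 to 0.518 and 1.04 CPM (log2 fold change -9.02, standard error 0.23, adjusted p = 4.9e-09). Lgr5 was at 0.612 and 0.513 CPM with Carbidopa and 0.505 and 0.959 CPM with LY-364747, so all treated libraries lay far below both MEF libraries. All of these calls against MEF held with any single library left out. Eln, which encodes elastin, fell from 114 and 128 to 0.806 and 0.696 CPM, and Fst, the activin antagonist follistatin, from 75.5 and 91.2 to 0.461 and 0.929 CPM. Aspn, a small leucine-rich proteoglycan, fell from 748 and 961 to 3.97 and 6.38 CPM, yet was higher than with Carbidopa (0.33 and 0.467 CPM) and LY-364747 (0.617 and 0.639 CPM) by 3.68 and 3.03 on the log2 scale (adjusted p = 0.000135 and 0.000325). Cldn1, a tight junction claudin, fell from 41.7 and 51.6 to 0.288 and 0.116 CPM, below every other library.

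The remaining large falls were Fcrls, C1qtnf3, Chl1, Ms4a7, Adamtsl3, Ackr1, Fmod and 1700047I17Rik2. Fcrls, an Fc receptor-like gene of macrophages and microglia, had 326 and 360 counts in MEF and 0 and 2 with CHIR-99021, a ratio of 410.0 with a counting interval from 113 to 3393. The value of 1700047I17Rik2 is uncertain, because all of its 75-base words also stand in transcripts of other genes. It had 768 and 476 counts in MEF, 0 in both CHIR-99021 and both Carbidopa libraries, and 583 and 0 with LY-364747, and its call was lost without either CHIR-99021 library.

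CHIR-99021 differed from Carbidopa in 2227 genes (14.7%), of which 1003 (6.62%) were higher, and from LY-364747 in 2143 genes (14.1%), of which 978 (6.45%) were higher. A gene was taken as set apart when CHIR-99021 differed in the same direction from MEF, Carbidopa and LY-364747, each at an adjusted p under 0.05. There were 298 genes set apart as higher (1.97% of those tested) and 577 as lower (3.81%). The 298 were 10.5% of the genes higher than in MEF, and the 577 were 18.96% of those lower. The 3 comparisons share the CHIR-99021 libraries, so a deviation of those libraries enters all of them. With each of the 8 libraries left out in turn the higher set ran from 61, without CHIR-99021 replicate 1, to 782, without Carbidopa replicate 1, and the lower set from 222 to 866 for the same libraries. The higher set held 165, 151, 513, 161, 91 and 143 genes without MEF replicate 1, MEF replicate 2, Carbidopa replicate 2, CHIR-99021 replicate 2, LY-364747 replicate 1 and LY-364747 replicate 2, and the lower set 405, 390, 724, 344, 292 and 369. Many genes named in the text were picked by fold change or p against MEF in these same libraries. How often their calls held with a library left out therefore does not describe all genes called.

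The genes that led the higher set included receptors, kinases and feedback inhibitors. Crabp2, which carries retinoic acid to its nuclear receptors, was at 27.2 and 24.95 CPM against 8.33 and 6.97, 8.94 and 6.62 and 8.03 and 7.402 CPM in MEF, Carbidopa and LY-364747. Its 3 log2 fold changes were 1.77, 1.74 and 1.76, nearly equal. The other 3 groups overlapped each other and CHIR-99021 stood alone above them.

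Errfi1, a feedback inhibitor of the EGF receptor, was at 107 and 100.1 CPM against 27.3 and 26.2 in MEF, 43.8 and 41.2 with Carbidopa and 41.4 and 39.1 with LY-364747. Dusp9, a phosphatase of MAP kinases, was at 13.3 and 10.3 CPM against 0.967 and 0.903, 5.55 and 4.48 and 5.11 and 4.79 CPM. Pim1, a serine/threonine kinase gene downstream of cytokine receptors, was at 165 and 156 CPM against 7.36 and 5.87, 80.03 and 64.3 and 64.6 and 65.6 CPM. For Dusp9 and Pim1 all treated libraries lay above MEF and the CHIR-99021 libraries lay above the other treated ones. Olr1, the receptor for oxidized LDL, was at 391 and 459.8 CPM against 109 and 104, 126 and 184 and 141 and 132 CPM. Angptl4, which inhibits lipoprotein lipase, was at 121 and 106 CPM against 3.79 and 3.87, 40.2 and 33.6 and 23.5 and 30.9 CPM. Lmod1, Sphk1, Kcnn4, Glp2r and Ptprn were also among them, and each gene named here stayed set apart with any single library left out.

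Of the 12 genes that led the lower set, Mrc1, Fcgr2b, Ms4a7, Cd48, Stab1, Cd180, Cd200r1 and Tlr7 encode receptors or membrane proteins known from macrophages and other leukocytes, and Ccl3 encodes a chemokine that they secrete. Ccl3 was at 0.23 and 0.696 CPM with CHIR-99021 against 5.73 and 6.00 in MEF, 5.27 and 6.02 with Carbidopa and 4.10 and 4.42 with LY-364747, so both CHIR-99021 libraries lay far below the other 6. Slc5a7, Cldn1 and Atp8b4, a flippase subunit, were the others. Slc5a7 stayed set apart in 5 of the 8 fits with a library left out, not without either CHIR-99021 library or LY-364747 replicate 1, and the other 11 genes did in all 8.

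**Figure D2:**
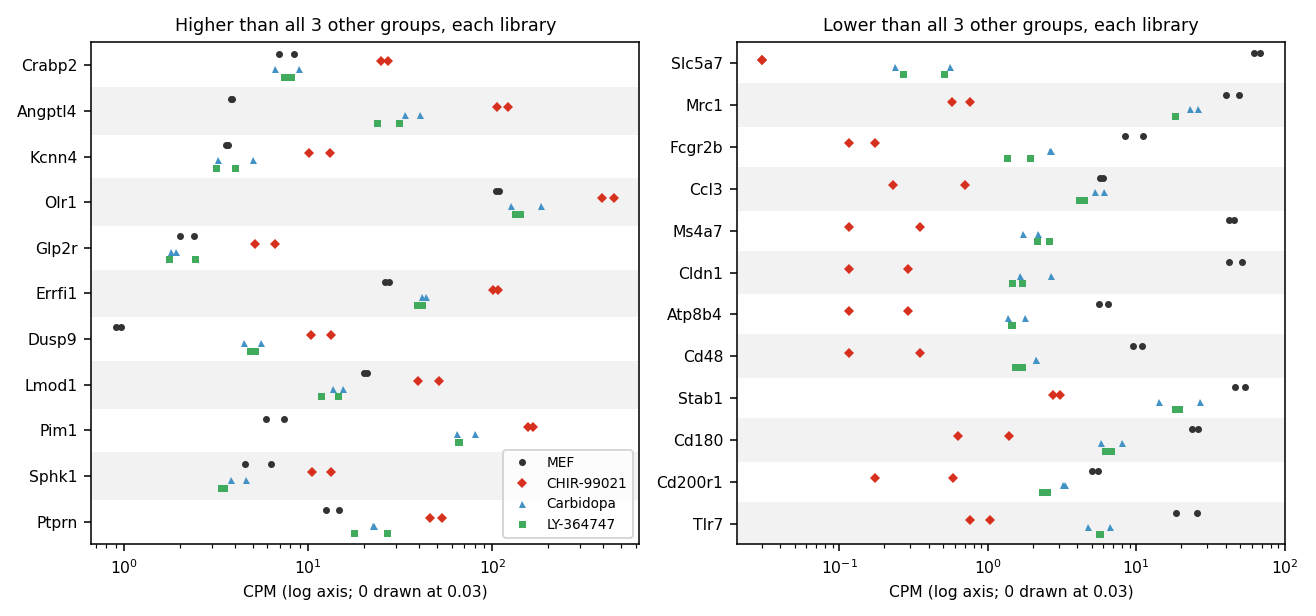
CPM in each library (log axis, with 0 drawn at 0.03) for 11 of the 12 genes highest and the 12 lowest with CHIR-99021 against all 3 other groups, with 2 points per group. CHIR-99021 (red diamonds) stands on 1 side of the other 6 libraries for each gene.

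The Wnt pathway was examined first through GSK3 itself and the complex it works in. Gsk3a was at 92.5 and 94.9 CPM in MEF and 88.8 and 88.5 CPM with CHIR-99021, and Gsk3b at 296 and 323 and 234 and 259.9 CPM. Neither passed the test (log2 fold change -0.08 and -0.32, adjusted p = 0.539 and 0.0826), nor did Ctnnb1, which encodes beta-catenin (-0.11, 0.377). DESeq2's Wald test and a fit of the compared groups alone put Gsk3b past the threshold (adjusted p = 0.0462 and 0.00503). Of the 23 genes of the complex and its nuclear partners, 5 were higher and 3 lower than in MEF, against 18.7% and 20.1% of all genes tested, with a median log2 fold change of -0.08.

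Axin1, the scaffold of the destruction complex, rose from 30.2 and 27.1 to 62.8 and 51.8 CPM (log2 fold change 1.00, standard error 0.15, adjusted p = 0.000415). Apc2, a relative of Apc, rose from 9.37 and 8.97 to 29.8 and 23.6 CPM, and Tle3, a corepressor that binds TCF factors, from 74.8 and 64.7 to 141 and 133 CPM. Tcf7l1, the TCF factor that mostly represses, fell from 49.5 and 56.4 to 29.0 and 33.8 CPM. None of Axin1, Apc2, Tle3 and Tcf7l1 differed from Carbidopa or LY-364747 at an adjusted p under 0.05. Btrc and Dvl2 (higher) and Tle2 and Tle4 (lower) had log2 fold changes of 0.50, 0.33, -0.55 and -0.57. Each of these 4 calls was lost with some libraries left out, that of Btrc without MEF replicate 2 or CHIR-99021 replicate 1, that of Dvl2 without these or MEF replicate 1, and those of Tle2 and Tle4 without any 1 of the 4.

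Of 33 Wnt targets and feedback genes listed, 25 were tested. With CHIR-99021 7 were higher and 12 lower than in MEF, beside 18.7% and 20.1% of all genes, with a median log2 fold change of -0.26 beside 0.04 over all genes. Axin2, which beta-catenin is known to induce in most tissues, had 35 and 27 counts in MEF and 32 and 33 with CHIR-99021, or 2.60 and 1.74 and 1.84 and 1.92 CPM. The 2 groups overlapped, and the difference of -0.20 on the log2 scale (standard error 0.31) did not pass (adjusted p = 0.648). With Carbidopa it was at 2.87 and 2.80 CPM and with LY-364747 at 2.75 and 3.89 CPM, and CHIR-99021 did not pass against either (adjusted p = 0.201 and 0.0876). The targets Notum, Sp5, Sp8, T, Cdx1, Cdx2, Dkk4 and Fgf20 were too low to test, with at most 3 counts in any MEF or CHIR-99021 library.

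The other feedback inhibitors did not rise together. Nkd1, which binds Dishevelled, fell from 6.77 and 6.58 to 3.05 and 2.03 CPM (log2 fold change -1.39, adjusted p = 0.000865) and was also below Carbidopa and LY-364747, by 0.81 and 1.02, the first call being lost without CHIR-99021 replicate 2 and the second without that library or either LY-364747 library. Nkd2 fell from 27.0 and 24.9 to 7.54 and 10.1 CPM, and Dact1, another partner of Dishevelled, from 11.6 and 13.0 to 5.12 and 5.80 CPM. Dact1, of whose 75-base words 33.1% stand in transcripts of other genes, nevertheless stood above Carbidopa and LY-364747 by 1.86 and 1.62 on the log2 scale (adjusted p = 0.000386 and 0.0009). Wif1 and Dkk1, secreted Wnt inhibitors, were low in MEF at 1.64 and 1.94 and 0.818 and 0.839 CPM and fell to 0.115 and 0.116 and 0.0576 and 0.058 CPM, the call of Dkk1 being lost without CHIR-99021 replicate 1. Znrf3, Kremen1 and Apcdd1 did not pass, with log2 fold changes of 0.22, 0.11 and 0.30. Rnf43, a ligase that removes Frizzled receptors, was called higher at 20 and 17 counts against 1 and 5, a call that held only without MEF replicate 2 among the 4 fits with a library left out.

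The transcription factors of the list moved differently. Lef1, which carries beta-catenin to its targets and is often induced by it, rose from 1.34 and 1.29 to 3.92 and 4.47 CPM (log2 fold change 1.67, standard error 0.33, adjusted p = 0.00269). It was at 1.55 and 0.84 CPM with Carbidopa and 0.842 and 0.799 CPM with LY-364747, below both CHIR-99021 libraries. Tcf7 rose from 0.521 and 0.516 to 3.92 and 4.93 CPM, but did not pass against Carbidopa (2.97 and 2.33 CPM, adjusted p = 0.0793) or LY-364747 (3.70 and 2.82 CPM, 0.279). Myc rose from 36.4 and 33.0 to 58.2 and 52.5 CPM (log2 fold change 0.67, standard error 0.12, adjusted p = 0.00142), while it was at 22.8 and 19.8 CPM with Carbidopa and 15.2 and 16.1 CPM with LY-364747, below MEF. Lef1 and Myc stayed set apart with any single library left out. Sox9 and Id2 were called lower than MEF by 0.63 and 0.49 on the log2 scale, and of the 4 fits with a library left out Sox9 kept its call only in that without MEF replicate 2 and Id2 only in that without CHIR-99021 replicate 2.

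Among receptors, signals and cell cycle targets, Fzd7, a Frizzled receptor, rose from 137 and 144 to 443 and 479.5 CPM and Lgr6, a relative of Lgr5, from 4.16 and 4.77 to 12.1 and 15.8 CPM. Neither passed the test against Carbidopa or LY-364747. Cd44, the hyaluronan receptor, fell from 884 and 916 to 229 and 247 CPM, Bmp4 from 13.2 and 13.9 to 4.32 and 4.47 CPM, and Ccnd2, which encodes cyclin D2, from 2466 and 2657 to 1433 and 1468 CPM. Ccnd1, which encodes cyclin D1, was at 1832 and 1724 CPM in MEF and 1498 and 1469 CPM with CHIR-99021 and did not pass (log2 fold change -0.26, adjusted p = 0.0749), though it did under DESeq2's Wald test (0.0400) and in a fit of the compared groups alone (0.00653).

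**Figure D3:**
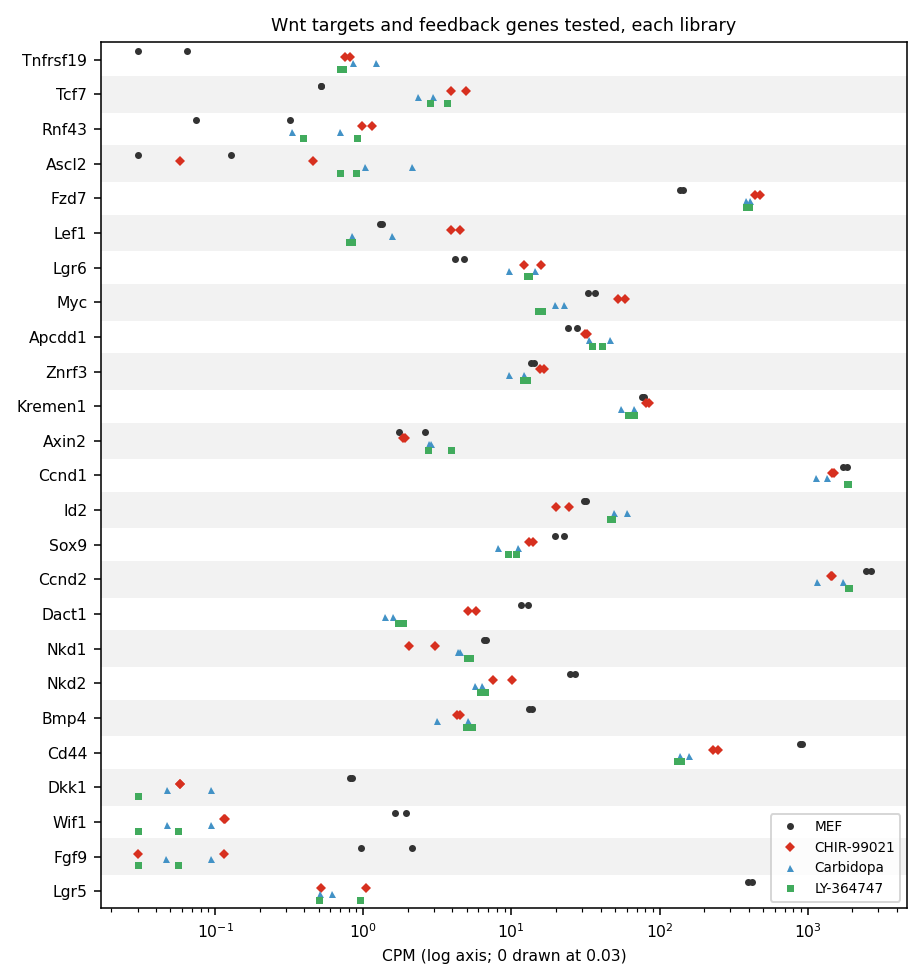
CPM in each library (log axis, with 0 drawn at 0.03) for the 25 Wnt targets and feedback genes tested, ordered by the log2 fold change of CHIR-99021 against MEF. CHIR-99021 (red diamonds) lies above every other library for Lef1 and Myc, among the MEF points for Axin2, and with the other treated libraries far below MEF for Lgr5.

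Of 30 Wnt ligands, receptors, antagonists and agonists tested, 6 were higher and 10 lower than in MEF, beside 18.7% and 20.1% of all genes. The ligand gene Wnt10b had 1 and 2 counts in MEF, 67 and 64 with CHIR-99021, 29 and 24 with Carbidopa and 16 and 25 with LY-364747, a ratio to MEF of 36.5 with a counting interval from 12.2 to 179. Wnt2b, another ligand, rose from 1.71 and 1.35 to 15.3 and 14.6 CPM, and the receptor Fzd1 from 31.2 and 35.6 to 107 and 121 CPM. Dkk2, a secreted antagonist, fell from 164 and 184 to 3.74 and 4.53 CPM (log2 fold change -5.39, standard error 0.15, adjusted p = 6.86e-09), and was at 5.65 and 5.50 CPM with Carbidopa. Dkk3 fell from 178 and 188 to 69.0 and 67.8 CPM, while Frzb, a decoy for Wnt ligands, rose from 8.11 and 11.6 to 35.4 and 35.5 CPM. Rspo2, which encodes an R-spondin that strengthens Wnt signals through the Lgr receptors, had 38 and 45 counts in MEF and 2 and 5 with CHIR-99021, below Carbidopa (32 and 26) and LY-364747 (25 and 24). Wnt10b, Fzd1, Dkk3 and Rspo2 were set apart, Fzd1 in only 2, Dkk3 in 4, Wnt10b in 6 and Rspo2 in 7 of the 8 fits with a library left out. Wnt10b lost its place without CHIR-99021 replicate 1 or LY-364747 replicate 1, and Rspo2 without CHIR-99021 replicate 1. Fzd1 and Dkk3 lost theirs without any 1 of the CHIR-99021 or LY-364747 libraries, Fzd1 also in fits without a MEF or Carbidopa library.

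RefSeq promoters, 250 bases before and 50 after a gene's start on GRCm38.p6, were searched for the TCF/LEF words CTTTGAT and CTTTGAA on both strands. They stood in 7.09% of the 10690 matched promoters of tested genes, in 8.18% of those of genes higher than in MEF and in 6.90% of those of genes lower. Of 6 matched promoters of Wnt list genes that were higher, 1 held such a word, and of 17 of the whole Wnt list 2 did. In the mitosis, S phase and retinoic acid lists described below, 4 of 22, 0 of 22 and 2 of 11 matched promoters did.

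Glycogen genes showed no common direction. Of 22 tested, 5 were higher and 6 lower than in MEF, near the 18.7% and 20.1% of all genes, with a median log2 fold change of 0.20. Gys1, the glycogen synthase that GSK3 is known to inhibit by phosphorylation, was at 35.0 and 35.7 CPM in MEF and 40.5 and 41.8 CPM with CHIR-99021 (log2 fold change 0.22, adjusted p = 0.132), which did not pass. It was higher than with Carbidopa by 0.55 and than with LY-364747 by 0.45 (adjusted p = 0.00714 and 0.0191), the first call being lost without either CHIR-99021 library and the second with any of the 4 libraries left out. Gbe1, the branching enzyme, rose from 20.7 and 16.5 to 37.5 and 39.8 CPM, and Pgm1 and Pgm2, which interconvert glucose phosphates, by 0.55 and 0.73 on the log2 scale.

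Ppp1r3c, a subunit that brings protein phosphatase to glycogen and activates the synthase, fell from 16.0 and 23.7 to 1.61 and 0.929 CPM (log2 fold change -3.96, standard error 0.29, adjusted p = 3.21e-06). It was also low with Carbidopa at 2.31 and 2.61 CPM and LY-364747 at 3.59 and 2.98 CPM. Ppp1r3d fell by 0.78 and Pygl, the liver phosphorylase, by 1.28. Gyg, glycogenin, which primes a glycogen particle, was at 158 and 170.1 CPM against 204 and 225 in MEF, 302 and 322 with Carbidopa and 326 and 311 with LY-364747, the lowest of the 4 groups. The call of Gyg against MEF was lost without MEF replicate 2 or CHIR-99021 replicate 1, as was that of Phka2 (-0.54). That of Ppp1r3f (0.94) was lost in the same 2 fits, that of Ppp1r3e (0.79) also without MEF replicate 1, and that of Phkb (-0.34) in all 4. Ppp1r3f is moreover uncertain, with 49.5% of its 75-base words in transcripts of other genes.

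Genes of mitosis fell together with CHIR-99021. All 28 genes of a mitosis and G2/M list were tested, and 26 were lower and 0 higher than in MEF, against 20.1% and 18.7% of all genes, with a median log2 fold change of -1.83. Against Carbidopa 24 were lower (8.08% of all genes) and against LY-364747 also 24 (7.69%), and 23 of the 28 were set apart as lower (3.81% of all genes). By unadjusted p under 0.05 and by DESeq2 none of the 28 was higher than in MEF either. With each library left out in turn, the count lower than MEF was 22 to 25 and the count set apart 15 to 25, the lowest without CHIR-99021 replicate 2 and the next, 17, without CHIR-99021 replicate 1. Their summed level was 390.3 and 400.2 CPM in MEF, 118.0 and 129.2 CPM with CHIR-99021, 265.1 and 295.0 CPM with Carbidopa and 347.5 and 306.4 CPM with LY-364747.

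Top2a, the topoisomerase that untangles chromosomes, fell from 50.6 and 52.1 to 12.3 and 15.3 CPM (log2 fold change -1.90, standard error 0.13, adjusted p = 2.1e-06). Mki67, which encodes the proliferation antigen Ki-67, fell from 72.4 and 72.3 to 14.9 and 15.5 CPM (log2 fold change -2.25, standard error 0.17, adjusted p = 3.99e-06) and was at 31.3 and 44.3 CPM with Carbidopa and 61.0 and 49.7 CPM with LY-364747. Ccna2, which encodes cyclin A2, fell from 22.0 and 23.7 to 5.18 and 6.09 CPM. Ube2c, the ubiquitin-conjugating enzyme of the anaphase-promoting complex, fell from 8.70 and 9.61 to 1.84 and 1.62 CPM, and the spindle motor gene Kif11 from 13.5 and 12.1 to 2.13 and 2.96 CPM. These 5 genes were the ones with the smallest p, and both CHIR-99021 libraries lay below the other 6 for each.

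Many promoters of this list carry the word TTTGAA, the core of the cell cycle homology region through which mitotic genes are known to be repressed outside of G2 and mitosis. The word and the promoters shown were chosen after the values had been seen. It stood, on either strand, in 17 of 22 matched promoters of the list (77.3%), in 14.4% of the promoters of all tested genes, in 23.0% of those of genes set apart as lower and in 3 of 22 of an S phase list (13.6%). CTTTGAA holds this word within it, so the searches overlap. The Ube2c window below also holds CTTTGAT, which is not marked. The promoters of 4 of the 5 genes above are shown because they carry the word before the start, in capitals as TTTGAA or, from the other strand, TTCAAA, and that of Ccna2 was not matched. Each runs 5′ to 3′ on the gene's strand and ends at the base before the RefSeq start on GRCm38.p6.
Top2a, chr11:99024190-99024269, minus strand: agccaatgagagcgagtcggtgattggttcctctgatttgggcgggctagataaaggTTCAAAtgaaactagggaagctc
Mki67, chr7:135716380-135716499, minus strand: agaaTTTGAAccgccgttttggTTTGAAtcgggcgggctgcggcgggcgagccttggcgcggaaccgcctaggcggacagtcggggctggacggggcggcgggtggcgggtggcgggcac
Ube2c, chr2:164769849-164769928, plus strand: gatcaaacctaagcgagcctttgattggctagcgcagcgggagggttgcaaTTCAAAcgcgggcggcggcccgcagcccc
Kif11, chr19:37376302-37376381, plus strand: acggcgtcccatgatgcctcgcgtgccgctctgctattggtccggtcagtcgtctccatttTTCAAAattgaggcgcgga
In Top2a, Ube2c and Kif11 the word begins 23, 29 and 19 bases before the start, and in Mki67 it occurs at 116 and 98 bases. A match is a description of the letters and no evidence that a factor binds there.

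Genes of DNA replication were called against MEF about as often as all genes. Of 28 S phase genes, 5 were higher and 6 lower than in MEF, beside 18.7% and 20.1% of all genes, with a median log2 fold change of -0.17. Mcm2 and Mcm3, subunits of the replicative helicase, rose by 0.73 and 0.61 on the log2 scale, from 24.1 and 26.3 to 39.3 and 44.2 CPM in the case of Mcm2. Rrm2, a subunit of ribonucleotide reductase, fell from 59.0 and 51.2 to 20.7 and 21.2 CPM and Ccne2, which encodes cyclin E2, from 17.6 and 16.8 to 6.28 and 7.78 CPM. Against Carbidopa 8 (8.08% of all genes) and against LY-364747 11 (7.69%) of the 28 were lower. With single libraries left out the first count moved in both directions, and the second was smaller in every such fit. In either comparison 0 were higher, beside 6.62% and 6.45% of all genes (by unadjusted p under 0.05, 1 and 0, and by DESeq2 0 and 0).

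A list of cell cycle inhibitors, retinoblastoma genes, Ccnd3, Cdk4 and Cdk6 held 12 genes, while Ccnd1 and Ccnd2 were counted in the Wnt list. Of the 12, 4 were lower and 0 higher than in MEF, beside 20.1% and 18.7% of all genes. By unadjusted p under 0.05 1 was higher, and by DESeq2 0. The count of lower genes was smaller with any single MEF or CHIR-99021 library left out. Cdkn1c, which encodes the inhibitor p57, fell from 95.8 and 112 to 51.2 and 49.9 CPM and was at 113 and 86.6 CPM with Carbidopa. Of 18 p53 targets, 7 were higher and 2 lower, beside 18.7% and 20.1% of all genes. Plk2 rose from 117 and 119 to 404 and 379 CPM and Mdm2, which encodes the ligase of p53, from 361 and 373 to 751 and 738 CPM, both above Carbidopa and LY-364747 as well, Mdm2 not without CHIR-99021 replicate 1 or, against LY-364747, without either of its libraries.

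MEF cultures can hold other cells of the embryo, and the macrophage list had the lowest median of all lists against MEF. In bulk RNA fewer cells of a type and less RNA per cell cannot be told apart. Of 21 macrophage genes listed 19 were tested, and all 19 were lower than in MEF, beside 20.1% of all genes. Their log2 fold changes ran from -0.65 (Cd14) to -6.05 (Mrc1), with a median of -3.46. By DESeq2 and by unadjusted p under 0.05 also 0 were higher. The call of Cd14 was lost with any of the 4 libraries left out. Against Carbidopa 16 (8.08% of all genes) and against LY-364747 14 (7.69%) were lower, and 14 were set apart as lower (3.81%). The summed level of the list was 1565 and 1615 CPM in MEF, 122 and 126 CPM with CHIR-99021, 464 and 452 CPM with Carbidopa and 339 and 348 CPM with LY-364747. Cd163 had 0 counts in all MEF and CHIR-99021 libraries.

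Mrc1, the mannose receptor, was at 0.576 and 0.754 CPM with CHIR-99021 against 40.0 and 48.8 in MEF, 23.1 and 26.0 with Carbidopa and 18.2 and 18.1 with LY-364747. Lyz2, lysozyme, fell from 738 and 758 to 47.8 and 53.8 CPM, and Adgre1, which encodes the surface antigen F4/80, from 34.7 and 36.1 to 1.04 and 1.80 CPM. Csf1r, the receptor for the macrophage growth factor CSF1, fell from 37.4 and 33.2 to 3.80 and 3.66 CPM, and the complement genes C1qa, C1qb and C1qc by 3.14, 3.12 and 3.46 on the log2 scale. Cx3cr1, the fractalkine receptor, was at 6.10 and 5.42 CPM in MEF and at most 0.174 CPM in every treated library. Trem2, a lipid-sensing receptor, fell from 14.8 and 13.7 to 2.65 and 2.21 CPM but was above LY-364747 (1.29 and 0.905 CPM), a call lost with any of the 4 libraries left out. These values moved in the same direction as those of mitosis, and their part in the fall of the mitotic genes was not tested.

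**Figure D4:**
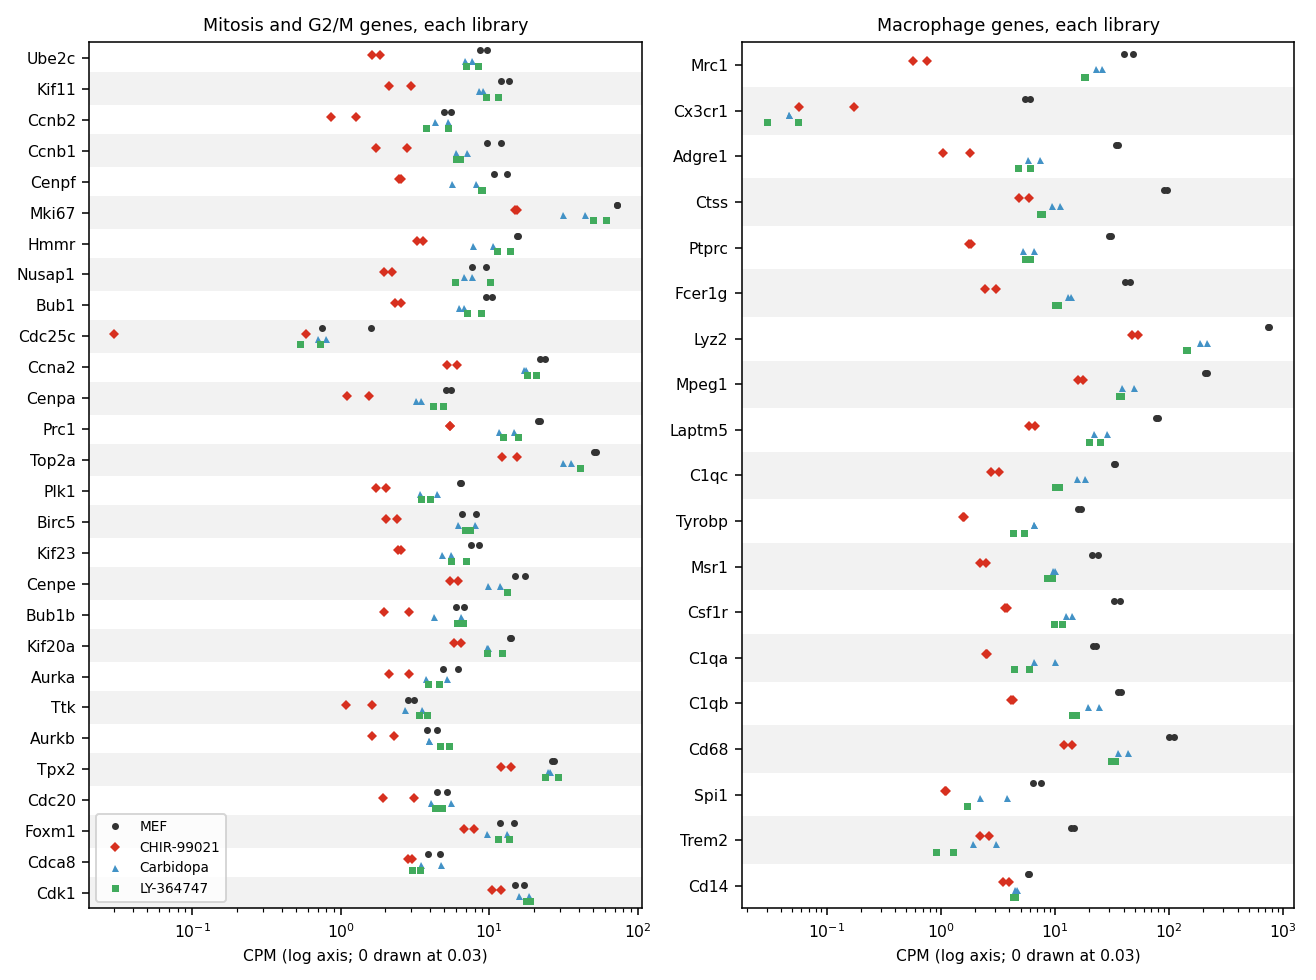
CPM in each library (log axis, with 0 drawn at 0.03) for the 28 mitosis and G2/M genes and the 19 macrophage genes tested, each ordered by log2 fold change against MEF. CHIR-99021 (red diamonds) is the lowest group for most genes of both panels, and Carbidopa and LY-364747 lie nearer to MEF in the left panel than in the right.

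Other genes of immune and vessel cells were examined beside them. Of 20 chemokine and cytokine genes, 14 were lower and 1 higher than in MEF, beside 20.1% and 18.7% of all genes. Their median log2 fold change was -2.53. Cxcl12, the ligand of Cxcr4, fell from 565 and 574 to 91.3 and 95.5 CPM but was above Carbidopa (57.4 and 63.0 CPM) and LY-364747 (60.1 and 61.3 CPM). Il1rl1, the receptor of interleukin 33, fell from 318 and 321 to 29.9 and 32.3 CPM and Ccl11, an eosinophil chemokine, from 14.7 and 17.03 to 0.0576 and 0.232 CPM. Of 20 interferon-stimulated genes 6 were lower than in MEF and 1, Ifit2, higher (0.89), beside 20.1% and 18.7% of all genes. Against Carbidopa 10 (8.08% of all genes) and against LY-364747 6 (7.69%) were lower. The count against Carbidopa moved in both directions with single libraries left out, and that against LY-364747 was smaller in every such fit. Ifitm3 was at 82.1 and 99.0 CPM against 218 and 248.9 in MEF, 253 and 181 with Carbidopa and 184 and 159 with LY-364747. Of the endothelial markers Pecam1, Cdh5, Kdr, Tek and Tie1, Pecam1, Cdh5 and Tie1 had at most 4 counts in any MEF or CHIR-99021 library, while Tek fell by 1.66 and Kdr did not pass (0.31, adjusted p = 0.238).

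Contractile genes separated CHIR-99021 from the other compounds. Of 19 smooth muscle genes 3 were higher and 9 lower than in MEF, beside 18.7% and 20.1% of all genes. Their median log2 fold change was -0.17. Against Carbidopa 13 were higher and 0 lower, and against LY-364747 also 13 and 0, where 6.62% and 6.45% of all genes were higher. By unadjusted p under 0.05 and by DESeq2 the count of lower genes was also 0 in both. With a library left out in turn these counts ranged from 7, without CHIR-99021 replicate 1, to 14 and from 8, without LY-364747 replicate 1, to 10.

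Acta2, the smooth muscle actin that marks myofibroblasts, fell from 2161 and 1970 to 134 and 94.7 CPM (log2 fold change -4.17, standard error 0.18, adjusted p = 6.48e-08) and did not pass against Carbidopa or LY-364747 (0.34 and 0.14, adjusted p = 0.194 and 0.594). Cnn1, calponin, was at 11.6 and 8.99 CPM with CHIR-99021 against 19.4 and 19.8 in MEF, 2.68 and 2.05 with Carbidopa and 2.19 and 2.18 with LY-364747. Myl9, a myosin light chain, was at 134 and 108 CPM against 107 and 107 in MEF, which did not pass (0.18, adjusted p = 0.411), while it was at 51.7 and 41.4 CPM with Carbidopa and 33.4 and 45.6 CPM with LY-364747. Tpm1, tropomyosin, rose from 726 and 695 to 2780 and 2559 CPM, above both other compounds, the call being lost without CHIR-99021 replicate 1 against Carbidopa and without LY-364747 replicate 1 against LY-364747. Acta2 thus lay with the other treatments, and Cnn1 and Myl9 between them and MEF or level with MEF. Tagln was lower than in MEF by 0.59, a call lost without MEF replicate 1 or CHIR-99021 replicate 2, and 53.3% of its 75-base words stand in transcripts of other genes.

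Targets of TGF-beta followed the same order. Of 19 tested, 6 were higher and 9 lower than in MEF, beside 18.7% and 20.1% of all genes. Compared with Carbidopa 15 were higher and 1 lower (6.62% and 8.08% of all genes), and with LY-364747 15 and 1 (6.45% and 7.69%). With a library left out these counts of higher genes were 11 to 15 and 12 to 14. Ctgf, a matricellular protein gene, was at 182 and 173 CPM with CHIR-99021, 414 and 374 in MEF, 41.4 and 36.5 with Carbidopa and 26.2 and 37.2 with LY-364747. Smad7, the feedback inhibitor of the pathway, was at 47.7 and 47.4 CPM against 93.4 and 86.1, 20.9 and 21.6 and 20.0 and 22.3 CPM. Both lay between MEF and the other compounds. The corepressor gene Skil, picked after its values were seen, was at 124 and 141 CPM against 108 and 116 in MEF, 24.9 and 26.0 with Carbidopa and 27.9 and 25.9 with LY-364747, and did not pass against MEF (0.24, adjusted p = 0.0888). Tgfbi went the other way, at 5.30 and 3.83 CPM against 91.4 and 81.2 in MEF, 28.9 and 28.4 with Carbidopa and 30.1 and 30.0 with LY-364747. The study describes LY-364947, spelled LY-364747 in the labels, as an inhibitor of the TGF-beta receptor and Carbidopa as one of aromatic amino acid decarboxylase.

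Of 14 targets and partners of the coactivators YAP and TAZ, 6 were higher and 2 lower than in MEF, beside 18.7% and 20.1% of all genes. Their median log2 fold change was 0.45. Against Carbidopa 9 (6.62% of all genes) and against LY-364747 7 (6.45%) were higher. In either comparison 0 were lower (8.08% and 7.69% of all genes), also by DESeq2 and by unadjusted p under 0.05. Cyr61, Ankrd1, Ajuba, Amotl1 and Amotl2 were set apart as higher, with log2 fold changes against MEF of 0.80, 0.89, 0.68, 0.96 and 0.90. Amotl1, angiomotin-like 1, was at 568 and 519 CPM against 278 and 282 in MEF, 239.9 and 346 with Carbidopa and 348 and 378 with LY-364747. Of the 5 only Cyr61 stayed set apart in all 8 fits with a library left out, and the count was lowest, at 1, without CHIR-99021 replicate 1 or LY-364747 replicate 1. Wwtr1, which encodes TAZ itself, fell by 0.90.

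Extracellular matrix genes were low with CHIR-99021. All 55 listed were tested, and 42 were lower and 6 higher than in MEF, beside 20.1% and 18.7% of all genes, with a median log2 fold change of -1.53. The summed level fell from 97925 and 98797 CPM to 37299 and 37774 CPM, while it was 24660 and 28687 CPM with Carbidopa and 31261 and 31078 CPM with LY-364747. Against Carbidopa 20 were higher and 9 lower (6.62% and 8.08% of all genes), and against LY-364747 14 and 14 (6.45% and 7.69%).

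Fn1, fibronectin, fell from 19267 and 18682 to 4990 and 4750 CPM. Col1a1 and Col1a2, the chains of collagen I, fell from 4076 and 3960 to 1387 and 1386 CPM and from 3845 and 3864 to 763 and 800.0 CPM. Col1a1 was above Carbidopa (688 and 666 CPM) and below LY-364747 (2232 and 1697 CPM), the latter call being lost without either CHIR-99021 library or LY-364747 replicate 1. Col1a2 was below both, though not with any CHIR-99021 or LY-364747 library left out. Of 8 small leucine-rich proteoglycans 7 were lower and 1 higher than in MEF, beside 20.1% and 18.7% of all genes. Their median log2 fold change was -3.11. Against Carbidopa 4 were lower and 2 higher (8.08% and 6.62% of all genes), and against LY-364747 5 and 2 (7.69% and 6.45%). Prelp of this family fell from 411 and 426 to 11.4 and 12.5 CPM and was at 50.7 and 67.1 CPM with Carbidopa and 70.6 and 68.8 CPM with LY-364747, above both CHIR-99021 libraries. Dcn, decorin, fell from 1596 and 1830 to 981 and 1209 CPM (-0.65, adjusted p = 0.00275), and was at 2004 and 1887 CPM with Carbidopa, above both MEF libraries.

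Of 21 matrix proteases and inhibitors tested, 16 were lower and 1 higher than in MEF, beside 20.1% and 18.7% of all genes. Their median log2 fold change was -1.78. Timp3, an inhibitor of metalloproteases, fell from 5159 and 5632 to 459 and 537 CPM, and Mmp3, stromelysin, from 48.8 and 43.0 to 5.76 and 6.33 CPM. Mmp3, Adamts2 and Adamts5 were also below both other compounds, Mmp3 by 2.06 and 1.74 on the log2 scale (adjusted p = 2.5e-05 and 9.12e-05).

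Of 19 mesenchymal genes and EMT factors, 12 were lower and 3 higher than in MEF, beside 20.1% and 18.7% of all genes. Vim, vimentin, fell from 2591 and 2470 to 812 and 699 CPM, Thy1 from 1368 and 1399 to 451 and 459 CPM and Ly6a, which encodes Sca-1, from 478 and 538 to 28.0 and 36.0 CPM. Cd34, a surface sialomucin of fibroblast and vascular progenitors, was at 1.78 and 2.73 CPM against 59.1 and 61.2 in MEF, 7.67 and 10.5 with Carbidopa and 9.49 and 10.1 with LY-364747, the lowest of all groups. Pdgfra, by contrast, rose by 0.64 (adjusted p = 0.00144) and Pdgfrb did not pass (0.10, 0.453). Pdgfrb was above Carbidopa and LY-364747 by 0.94 and 0.78 (adjusted p = 0.000308 and 0.000896). Ncam1, the neural cell adhesion molecule, was at 125 and 129.6 CPM against 409 and 416 in MEF and 24.4 and 26.9 and 30.4 and 30.0 CPM with Carbidopa and LY-364747.

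Epithelial genes were low and mixed. Of 27 listed 14 were tested, and 7 were higher and 4 lower than in MEF, beside 18.7% and 20.1% of all genes. The largest change of the list was the fall of Cldn1, with a log2 fold change of -7.80, which was set apart as lower. Cldn4, a claudin of simple epithelia, had 2 and 2 counts in MEF, 36 and 29 with CHIR-99021, 12 and 8 with Carbidopa and 9 and 4 with LY-364747. Krt18, a keratin of simple epithelia, had 5 and 10 counts in MEF and 45 and 48 with CHIR-99021, and its partner Krt8 at most 6 counts in any library. Pkp2, which encodes a protein of desmosomes, rose by 0.80 and was set apart together with Cldn4 and Krt18. Of these, Pkp2 stayed so with any library left out and Cldn4 and Krt18 in 5 and 3 of 8 fits, each losing its place without CHIR-99021 replicate 1. Epcam had 0 and 0 counts in MEF and 2 and 5 with CHIR-99021, and Cdh1, which encodes E-cadherin, 0 and 0 and 3 and 0.

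Of 40 hepatocyte genes listed only 6 had enough counts to test. Prox1, a transcription factor of liver and lymphatic cells, rose from 3.35 and 3.03 to 6.97 and 8.30 CPM and Ass1, argininosuccinate synthase, fell from 324 and 305 to 143 and 129 CPM, although 32.6% of the 75-base words of Ass1 stand in transcripts of other genes. Alb, albumin, had 2 and 0 counts in MEF and 6 and 7 with CHIR-99021, a ratio of 5.44 with a counting interval from 1.23 to 49.6. Hnf4a, a factor that governs hepatocyte identity, had 1 and 2 and 7 and 8 counts, a ratio of 4.18 from 1.18 to 22.5. Both were at similar counts with Carbidopa, 5 and 8 for Alb and 6 and 7 for Hnf4a, and too low to test, and the intervals cover counting error only. Cyp1a1, a cytochrome P450 of foreign compound metabolism, had 4 and 0 counts in MEF and 7 and 12 with CHIR-99021. Wisp2, which the study followed as a fibroblast gene, fell from 16.4 and 16.8 to 0.806 and 1.10 CPM.

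Cholesterol synthesis was lower with CHIR-99021 than in each other group. Of 23 genes tested, 15 were lower and 0 higher than in MEF, beside 20.1% and 18.7% of all genes, with a median log2 fold change of -0.85. By unadjusted p under 0.05 and by DESeq2 also 0 were higher. Against Carbidopa 15 were lower (8.08% of all genes) and 1 higher, against LY-364747 14 (7.69%) and 0, and 11 were set apart as lower (3.81%), 8 to 16 with a library left out. Hmgcs1, the synthase at the start of the pathway, was at 235 and 265 CPM with CHIR-99021 against 540.0 and 577 in MEF, 414 and 397 with Carbidopa and 413 and 397 with LY-364747 (log2 fold change against MEF -1.16, standard error 0.10, adjusted p = 1.08e-05). Sqle, squalene epoxidase, was at 135 and 143 CPM against 270.2 and 271, 222 and 232 and 223 and 227 CPM, and Idi1 and Lss fell by 1.36 and 1.12. For each of Hmgcs1, Sqle, Idi1 and Lss, both CHIR-99021 libraries lay below the other 6.

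Stress and metabolic lists were mostly mixed, and their counts stand beside 18.7% of all genes higher and 20.1% lower than in MEF. Of 19 targets of the antioxidant factor NRF2, 11 were higher and 3 lower than in MEF. Txnrd1, thioredoxin reductase, rose from 157 and 154 to 499 and 467 CPM, above Carbidopa (316 and 299 CPM) and LY-364747 (279 and 309.9 CPM), while Nqo1 rose by 1.04 and did not pass against either. Of 19 ATF4 targets 2 were higher and 11 lower, among them Slc7a5, an amino acid transporter, by 1.06, and Chac1 by 1.33. Of 22 glycolysis and hypoxia genes 8 were higher and 5 lower. Hk1, hexokinase, rose by 0.76 and Ndrg1 fell from 51.7 and 52.4 to 3.45 and 5.11 CPM. Of 25 lysosome and autophagy genes 2 were higher and 13 lower, Gpnmb falling from 1470 and 1547 to 306 and 345 CPM. Macrophages also express Gpnmb, and the part of the fall in macrophage genes in it was not tested.

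Retinoic acid genes had the highest median of all lists, 0.88. Retinoic acid is a ligand made from vitamin A that acts through RAR receptors. Of 16 genes tested, 9 were higher and 6 lower than in MEF, beside 18.7% and 20.1% of all genes. Cyp26b1, an enzyme that degrades retinoic acid, rose from 11.7 and 11.0 to 230.4 and 244 CPM (log2 fold change 4.39, standard error 0.12, adjusted p = 5.62e-09) and was higher with Carbidopa (568 and 597 CPM) and LY-364747 (599 and 536 CPM). Dhrs3, which reduces retinal, rose from 29.2 and 28.8 to 366 and 389 CPM and did not pass against the other compounds. Aldh1a3, which makes retinoic acid, fell from 2.68 and 2.58 to 0.0576 and 0.174 CPM. Crabp2 and Rara were set apart as higher, Rara, which encodes the alpha receptor, at 56.1 and 46.8 CPM against 27.0 and 26.1 in MEF, 22.3 and 18.7 with Carbidopa and 18.5 and 18.9 with LY-364747. Both calls held with any single library left out.

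The Rarb promoter is known for a response element of RAR, and its window is shown because Rarb was among the largest rises. The repeats of that element, GGTTCA followed by any 5 bases and AGTTCA, were chosen after the values were seen and searched together on both strands. The letters searched were those of the Rarb element itself, so a match there was fixed in advance and its rarity carries no weight. The pair stood in 1 of the 10690 matched promoters of tested genes (0.00935%), that of Rarb. It is in capitals in the 80 bases before the start on GRCm38.p6, from 53 to 37 bases before it, and 32.1% of the 75-base words of Rarb transcripts also stand in transcripts of other genes, Top2b first among them.
Rarb, chr14:16575477-16575556, minus strand: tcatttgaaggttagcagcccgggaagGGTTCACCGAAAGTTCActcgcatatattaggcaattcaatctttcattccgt

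The growth factor genes named here changed in both directions. Fgf7 and Fgf10, ligands by which mesenchyme acts on epithelium, fell from 47.6 and 53.04 to 3.68 and 4.87 CPM and from 32.6 and 32.8 to 1.38 and 1.22 CPM, and both were below Carbidopa and LY-364747, the calls against LY-364747 being lost without LY-364747 replicate 1 and that of Fgf7 also without CHIR-99021 replicate 1. Fgfr1, an FGF receptor, was at 740.4 and 697 CPM against 442 and 442 in MEF, 423 and 404 with Carbidopa and 368 and 382 with LY-364747, the highest of the 4 groups. In the FGF list as a whole 4 of 17 were higher and 7 lower than in MEF, beside 18.7% and 20.1% of all genes. Of 14 genes of the insulin-like growth factor system 3 were higher and 7 lower. In both lists the count of higher genes was near the share over all genes. Igfbp5, a binding protein, fell from 439 and 467 to 32.1 and 34.6 CPM and was at 144 and 208 CPM with Carbidopa and 258 and 237 CPM with LY-364747. Igf1 fell from 171 and 198 to 20.9 and 25.5 CPM and Igfbp6 rose from 23.9 and 25.6 to 565 and 438 CPM, and neither passed against the other compounds.

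Of 11 Hedgehog genes 6 were higher and 1 lower than in MEF, where 18.7% and 20.1% of all genes were. Cdon, a coreceptor, rose from 125 and 114 to 406 and 438 CPM, less than with Carbidopa (759 and 1094 CPM) and LY-364747 (1145 and 1058 CPM), and Gli2, a transcription factor of the pathway, fell by 0.88. Of 15 BMP and Id genes 4 were higher and 8 lower. Id3 rose from 12.9 and 12.5 to 103 and 84.1 CPM. Of 17 immediate early genes 5 were higher and 9 lower, with Jun rising by 1.62 and Egr1 falling by 1.67.

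**Figure D5:**
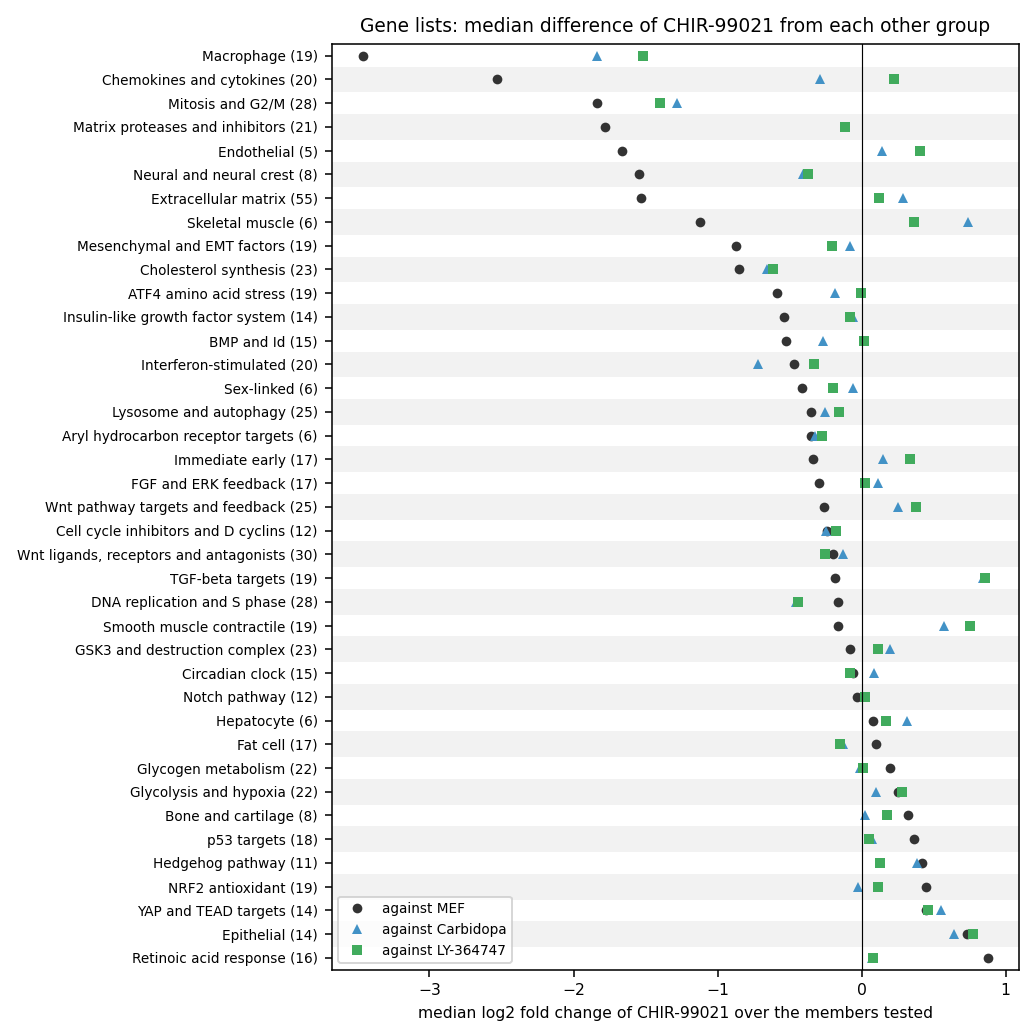
Median log2 fold change of CHIR-99021 against MEF (black circles), Carbidopa (blue triangles) and LY-364747 (green squares) over the tested members of each list, with their number in parentheses. Mitosis, macrophage and cholesterol lists lie below 0 in all 3 comparisons, while the contractile and TGF-beta lists lie above 0 against both compounds and just below it against MEF.

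The cultures held cells of both sexes, since Xist and Y-linked genes were counted in every library. Xist fell from 1228 and 1185 to 474 and 552 CPM, by 1.23 on the log2 scale with a standard error of 0.12 (adjusted p = 2.11e-05). Of the Y-linked genes, Ddx3y was lower by 0.53 (adjusted p = 0.00474), a call lost without CHIR-99021 replicate 1, and Eif2s3y, Kdm5d and Uty did not pass, with log2 fold changes of -0.17, 0.05 and -0.30.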

How the data were processed

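RNA-seq libraries of MEFs numbered 8, 2 per group. The authors aligned reads with STAR 2.4.2a to mm10 and deposited raw gene counts, one table of 50578 genes, which were used as deposited. The labels name a SMARTER library kit and the study's methods another kit, so strand use is unknown. Counting parameters are not given in the sources used here, and genes overlapping others may share reads. For genes named in the text, 75-base words of GENCODE M21 transcripts (GRCm38) were matched to other genes on either strand, and besides the genes so marked in the text Idi1 (23.6%), Gsk3a (22.1%), Cdkn1c (22.1%), Ccnd1 (20.6%) and Timp3 (20.6%) had over 20% of such shared words. RefSeq promoters were those of GRCm38.p6.

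Genes were kept by edgeR's filterByExpr (15154 tested) and fitted in all 8 libraries with group as the only term, TMM normalization and the quasi-likelihood test (edgeR 4.0.16, R 4.3.3), with Benjamini-Hochberg adjusted p under 0.05 as the threshold. Totals ran from 15039566 to 20504338 counts, and the biological coefficient of variation was 11.0%. Ratios at low counts have exact 95% intervals that cover counting error only, and where a group had 0 counts, 3 counts per library were used as the floor. On simulated counts for CHIR-99021 against MEF the test recovered 71.7% of 2-fold and 92.9% of 4-fold changes, and 2.98% of its calls were false. Over 5 simulations 495 and 493 such changes were tested, and all other genes had the same level in both groups. Counts were drawn with the fitted dispersion, the same in every group. The data held far more changes and an unequal spread between groups, so these rates are not those of the calls reported.

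The genes named were the 15 largest rises and falls among called genes with a mean of at least 5 CPM in the higher group and no overlap between MEF and CHIR-99021, the 12 highest and 12 lowest genes set apart, ranked by the smallest of their 3 differences, from each list at most 5 genes, those of smallest p against MEF, the members of the Wnt target, GSK3, glycogen, macrophage and sex-linked lists, genes the study measured by PCR and cell type markers. Predicted genes and pseudogenes were left out of the first 2 sets, except 1700047I17Rik2, whose name the filter did not catch. Any other gene, and the promoters shown, were chosen after their values were seen. A few genes within these sets are not reported here. The members and lists were chosen with earlier results of these data known. Alternatives were RLE size factors, DESeq2 1.42.0, other filters, a replicate block, the compared groups alone, and each library left out. Replicate numbers were not found to pair the libraries.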

Additional observations from a re-analysis of the deposited data

How the results depend on the processing

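The count of genes called against MEF, 5878, was 5853 with RLE size factors, 5265 with DESeq2's Wald test, 6448 with no filter, 5178 with at least 10 counts in every library and 7606 with the compared groups alone. With the compared groups alone, calls against Carbidopa numbered 1027 (402 higher and 625 lower) and against LY-364747 3673 (1810 higher and 1863 lower), and the cause was not tested. With each library left out, calls ranged from 3433 to 4709 against MEF (higher 1385 to 2261, lower 2017 to 2448), from 715 to 4632 against Carbidopa (higher 288 to 2410, lower 427 to 2222) and from 663 to 1200 against LY-364747 (higher 216 to 546, lower 416 to 654). The genes set apart ranged from 283 to 1648 (higher 61 to 782, lower 222 to 866), and the cause was not tested. The log2 fold change of Ccnd2 against Carbidopa, 0.01, ran from -0.24 without Carbidopa replicate 1 to 0.32 without Carbidopa replicate 2.

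Replicate numbers are shared between groups, but no label ties them to a shared culture or batch. Deviations of same-numbered CHIR-99021 libraries correlated at 0.035 with MEF, 0.128 with Carbidopa and -0.148 with LY-364747, and with 2 libraries a group the pairing was taken as a shared number only. With the replicate block 5722 genes were called against MEF, 2010 against Carbidopa and 1973 against LY-364747.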

Other observations

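Lists of other mesodermal and neural cell types were short, and their counts stand beside 18.7% of all genes higher and 20.1% lower than in MEF. Of 17 fat cell genes tested, 5 were higher and 3 lower than in MEF, with a median log2 fold change of 0.10, while against Carbidopa 1 was higher and 6 lower (6.62% and 8.08% of all genes) and against LY-364747 3 and 5 (6.45% and 7.69%). Lpl, the lipoprotein lipase that Angptl4 is known to inhibit, was at 36.7 and 42.8 CPM with CHIR-99021 against 355 and 384 in MEF, 79.8 and 75.7 with Carbidopa and 70.6 and 70.6 with LY-364747. Of 8 bone and cartilage genes 3 were higher and 2 lower than in MEF, and of 8 neural and neural crest genes 1 and 5. Of 6 skeletal muscle genes 3 were lower and 0 higher, also 0 higher by DESeq2 and by unadjusted p under 0.05. Of 15 circadian clock genes 5 were higher and 4 lower, of 12 Notch pathway genes 2 and 3, and of 6 aryl hydrocarbon receptor targets 1 and 3.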
